A study of Mus musculus with 6 samples.

Results

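Transcription factors that specify and maintain the melanocyte lineage were measured in B16-F1 and D5.1G4, both melanoma lines of the mouse. The group holds 10 genes, Mitf, Sox10, Pax3, Tfap2a, Irf4, Sox9, Sox2, Tfeb, Tfe3 and Cited1, of the 20659 genes with a probe on the array. They were taken by name, as every probe whose transcript accession maps to one of these symbols, and 14 probes did so. B16-F1, from the B16 melanoma of the C57BL/6 mouse, was set against D5.1G4, which the series design names as its reference. No treatment was given to either line, culture lasted 24 h in serum-supplemented RPMI-1640, and each line was measured on 3 arrays of the 1-colour Agilent type. Whether replicates came from separate cultures is not stated, so p-values measure only the spread between these arrays, which may be technical. The title of the series places the comparison among melanomas of unequal tumorigenicity.

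MITF is the basic helix-loop-helix factor that switches on pigment and survival genes in melanocytes. Its gene is driven by PAX3, SOX10, LEF1 and the cAMP-responsive factor CREB, and SOX10 and MITF are retained in most melanomas. TFEB and TFE3 belong to the same family as MITF, share its DNA-binding domain and control lysosomal genes. TFAP2A and IRF4 act beside MITF at pigment genes, SOX9 and SOX2 are relatives of SOX10 used in other neural crest and stem cell states, and CITED1 is a transcriptional coactivator found in melanocytes. PAX3 acts early in the neural crest and in melanocyte stem cells.

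Each level below is the log2 of the processed signal minus that array's 75th percentile, so 0 is the 75th percentile and each unit is a doubling. A probe counts as detected on an array where the scanner software marked it well above background. Between 53.4% and 62.0% of spots passed this mark on an array, and no spot was saturated. The arrays were scanned at 3 times. B16-F1 replicates 2 and 3 share scan 1, B16-F1 replicate 1 and D5.1G4 replicates 2 and 3 share scan 2, and D5.1G4 replicate 1 is alone in scan 3. All 8 melanocyte markers examined, among them Tyr, Dct, Pmel and Mlana, were detected on every array. Their summed signal was 454.6 to 568.4 times the 75th percentile in B16-F1, against 555.7 to 769.4 times in D5.1G4. Of 8 fibroblast markers 4 were detected on at least 1 array, with a summed signal of 1.26 to 1.42 times the 75th percentile in B16-F1, against 2.82 to 3.24 times in D5.1G4. Pdgfra, Dcn, Col3a1 and Thy1 were the 4 not detected, while Pdgfrb (-3.33), Col1a2 (-3.74) and Col1a1 (1.73) were detected on all arrays and differed past the threshold given below. Of 6 keratinocyte markers 3 were detected (Krt5, Krt14 and Trp63, but not Krt1, Krt10 and Dsg3), with sums of 1.28 to 1.80 in B16-F1, against 1.51 to 2.14 in D5.1G4. Of 4 endothelial markers 2 were detected (Pecam1 and Kdr, but not Cdh5 and Tek), with sums of 0.67 to 1.49 in B16-F1, against 0.83 to 0.90 in D5.1G4. All 6 leukocyte markers were detected on at least 1 array, with sums of 0.95 to 2.24 in B16-F1, against 0.92 to 1.85 in D5.1G4. The part of such markers in the results was not tested.

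Most of the lineage factors were detected in both lines, and 1 of them, Pax3, differed past the threshold. Of the 10 genes, 8 were detected on all 6 arrays, Irf4 on the 3 B16-F1 arrays only and Sox2 on none. Pax3 was 2.46-fold lower in B16-F1. Mitf, Sox10, Tfap2a, Irf4, Sox9, Tfeb, Tfe3 and Cited1 were not called, where a call needs both a 2-fold difference and an adjusted p no higher than 0.05 in limma's moderated test. Among the 9 genes tested, 1 call is to be read against 15.2% of all 18442 features called (6.28% higher and 8.89% lower). The median log2 difference (B16-F1 minus D5.1G4) was 0.15 for these 9 and 0.00 (-0.0042) for all features. The median absolute difference was 0.33 for these 9, against 0.43 for all features. Values of the lines were fully separated for Mitf, Pax3 and Sox9, 3 of 9, where 50.7% of all features measured on every array were so separated.

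**Figure D1:**
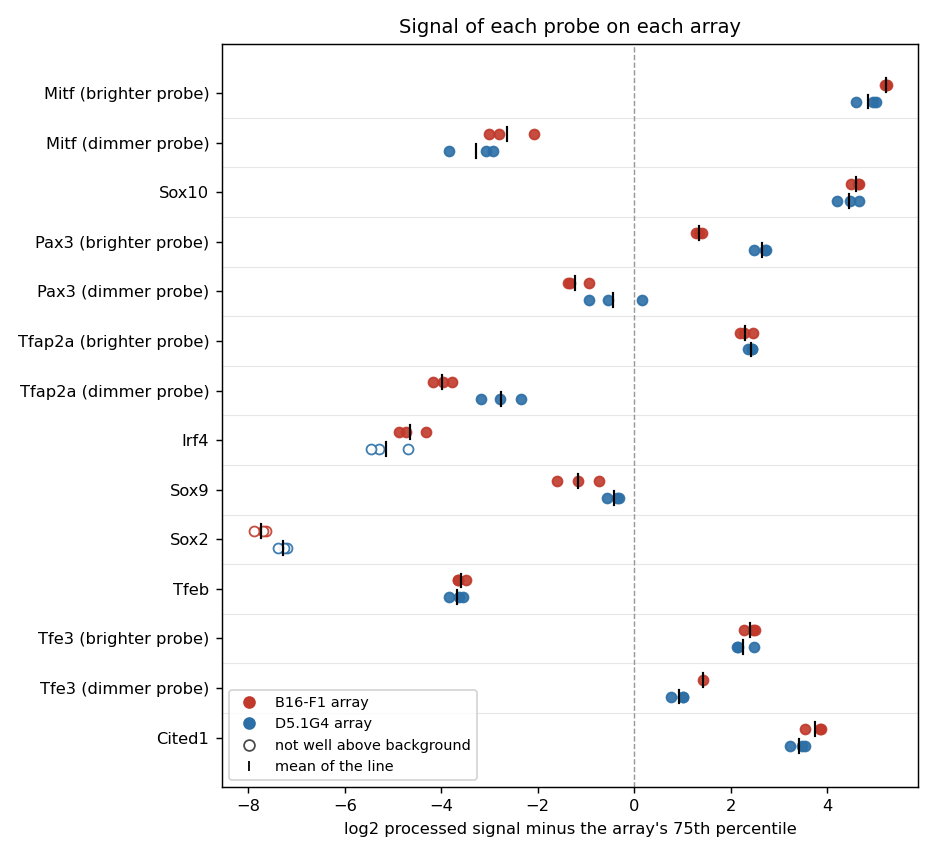
Level of each of the 14 probes on each array, as log2 processed signal minus the array's 75th percentile (x axis), with B16-F1 arrays above D5.1G4 arrays, black bars for line means and open circles for arrays where the probe was not well above background. The brighter Pax3 probe lies from 1.28 to 1.40 in B16-F1 and from 2.48 to 2.74 in D5.1G4, while the brighter Mitf, Sox10, Tfap2a and Tfe3 probes differ little between the lines.

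Mitf, on chromosome 6, was represented by the probe A_55_P2176838, which read 5.23, 5.19 and 5.23 on B16-F1 replicates 1, 2 and 3. It read 4.60, 5.02 and 4.94 on D5.1G4 replicates 1, 2 and 3. All B16-F1 values lay above all D5.1G4 values, and D5.1G4 replicate 1, the array scanned alone, was the lowest. The difference was 0.36 (SE 0.14, 95% confidence interval 0.020 to 0.71, unadjusted p = 0.0413, adjusted p = 0.0957 by limma), which did not pass, and its interval excludes a 2-fold change. Within scan 2 it was 0.25. With quantile normalization it was 0.57 (adjusted p = 0.0137 by limma) and with the authors' deposited values 0.58 (adjusted p = 0.0131). Both pass on p and stay under 2-fold, so the p of Mitf depends on the normalization. The dimmer Mitf probe, A_55_P2152437, averaged -2.64 ± 0.49 in B16-F1 and -3.28 ± 0.49 in D5.1G4 (SD, n = 3 each), with overlapping arrays. Its difference was 0.64 (SE 0.34, interval -0.17 to 1.45, adjusted p = 0.189 by limma over all probes). By this probe the interval includes a 2-fold change. The change between the Mitf probes was 0.28, with an exact permutation p of 0.6 (2-sided, smallest possible 0.1).

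Mitf has several promoters, and the most downstream start drives the melanocyte isoform. RefSeq's table for GRCm38.p6 lists 3 Mitf starts. The window shown runs from 250 bases before to 50 bases after the most downstream one, chr6:97991533-97991832 on the plus strand. It was chosen because PAX3, SOX10, LEF1 and CREB are known to act on this promoter. Bases of this promoter outside the window were not searched. Capitals mark matches on either strand to the cAMP response element TGACGTCA, the LEF1 core CTTTGA and the homeodomain core ATTA, a form of which PAX3 can bind.
Mitf, most downstream start: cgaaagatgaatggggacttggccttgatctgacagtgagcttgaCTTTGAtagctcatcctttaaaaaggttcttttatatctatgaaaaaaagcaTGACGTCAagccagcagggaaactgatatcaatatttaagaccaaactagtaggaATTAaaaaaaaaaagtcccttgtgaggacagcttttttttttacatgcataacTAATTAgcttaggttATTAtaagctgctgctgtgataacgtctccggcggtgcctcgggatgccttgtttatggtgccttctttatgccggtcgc
The cAMP response element starts 153 bases before the start site, and 1.79% of 32851 promoters of equal length hold such a match. The LEF1 core starts 205 bases before it (16% of promoters hold one), and the window has 4 homeodomain cores (58% hold at least 1). SOX cores searched as ACAAT and ACAAAG had no match in this window, where 31% and 18.7% of promoters hold one. None of the other 2 Mitf windows holds the cAMP response element. The table has windows for 7 of the 10 genes, and Pax3, Sox10 and Sox9 are not among them. Matches describe letters in the window, and binding was not measured.

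Sox10, on chromosome 15, encodes the SOX factor that neural crest derivatives need for Mitf expression. Its probe read 4.63, 4.66 and 4.50 on B16-F1 replicates 1, 2 and 3, against 4.20, 4.66 and 4.47 on D5.1G4 replicates 1, 2 and 3. D5.1G4 replicate 1 was the lowest, and the other 5 arrays lay between 4.47 and 4.66. The difference was 0.15 (SE 0.15, interval -0.21 to 0.52, adjusted p = 0.464 by limma), so a change of 2-fold lies outside the interval.

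Pax3, on chromosome 1, was the called gene. The brighter probe, A_55_P2033705, read 1.35, 1.28 and 1.40 on B16-F1 replicates 1, 2 and 3, against 2.74, 2.48 and 2.71 on D5.1G4 replicates 1, 2 and 3. All B16-F1 arrays lay below all D5.1G4 arrays, and the gap was larger than the spread within either line (SD 0.059 in B16-F1 and 0.14 in D5.1G4). The difference was -1.30 (SE 0.12, interval -1.59 to -1.01, adjusted p = 0.000667 by limma), which ranks 1984 by size among the 18442 features. It was lower in B16-F1 under all 20 alternatives tried and called in each (3 of which use 1 B16-F1 array), from -1.43 (median scaling) to -1.04 (mean over both Pax3 probes). Where only the filter, spot marks, replicate block, p or variance model changed, the value was again -1.30, so these do not test its direction. Unadjusted p could not lose a call made on adjusted p. Within scan 2, where 1 B16-F1 array faces 2 D5.1G4 arrays, the Pax3 difference was -1.25.

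The dimmer Pax3 probe, A_51_P315734, is printed at 10 spots on each array, which separates the spread within an array from that between arrays. It averaged -1.33, -1.38 and -0.95 on the B16-F1 replicates, against 0.15, -0.93 and -0.55 on the D5.1G4 replicates. The SD over its 10 spots was 0.075 to 0.10 on an array, well under the SD between arrays of 0.24 in B16-F1 and 0.55 in D5.1G4. Every B16-F1 array was again lower, though B16-F1 replicate 3 and D5.1G4 replicate 2 nearly met. The difference was -0.78 (SE 0.29, interval -1.49 to -0.065, adjusted p = 0.0863 by limma over all probes) and was not called. Without D5.1G4 replicate 2 it was -1.02 and was called (adjusted p = 0.0459), and without D5.1G4 replicate 1 it was -0.48. The change between the 2 Pax3 probes was 0.52 (exact permutation p = 0.3, 2-sided, smallest possible 0.1).

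Tfap2a, on chromosome 13, encodes the AP-2 alpha factor, and its 2 probes gave unlike results. The brighter probe, A_55_P1964812, read 2.45, 2.19 and 2.27 on the B16-F1 replicates, against 2.36, 2.44 and 2.44 on the D5.1G4 replicates. These values overlapped, and the difference of -0.11 did not pass (SE 0.12, interval -0.40 to 0.17, adjusted p = 0.496 by limma). The dimmer probe, A_55_P2199463, which the files list under another transcript of the gene, read -4.18, -3.97 and -3.78 on the B16-F1 replicates, against -2.34, -3.18 and -2.78 on the D5.1G4 replicates. It was lower on every B16-F1 array than on any D5.1G4 array.

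The dimmer Tfap2a probe was called, at -1.21 (SE 0.24, interval -1.78 to -0.63, a 2.31-fold lower signal, adjusted p = 0.0101 by limma over 22131 probes). Of all probes 15.7% were called, and 8.70% were called lower. The signal of the dimmer relative to the brighter probe averaged -6.28 in B16-F1 and -5.18 in D5.1G4, with no overlap, and changed by -1.09. The exact permutation p of that change was 0.1, the smallest that 3 arrays against 3 can give, so the disagreement between the probes cannot pass at 0.05. The call of the dimmer probe was lost with normexp background correction (-0.56, adjusted p = 0.484), without the arrays of scan 1 (-1.41, adjusted p = 0.0756) and without D5.1G4 replicate 1 (-0.99, under the minimum fold). Within scan 2 it was -1.19.

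Irf4, on chromosome 13, encodes an interferon regulatory factor that cooperates with MITF at the tyrosinase gene. Its probe was well above background on all 3 B16-F1 arrays (-4.89, -4.31 and -4.73) and on none of the 3 D5.1G4 arrays (-5.28, -4.69 and -5.45). The measured values overlap all the same, because D5.1G4 replicate 2 was above B16-F1 replicates 1 and 3. Irf4 entered the test only through the line in which it was detected. The fitted difference of 0.50 between means of -4.64 in B16-F1 and -5.14 in D5.1G4 was not called (SE 0.25, adjusted p = 0.174 by limma). B16-F1 replicates 2 and 3 also had the largest shares of detected spots, 62.0% and 61.7%. The part of this in the Irf4 detections was not tested.

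Sox9, on chromosome 11, encodes a SOX factor of cartilage, neural crest and hair follicle stem cells. Its probe, also printed at 10 spots, averaged -1.60, -1.17 and -0.73 on B16-F1 replicates 1, 2 and 3, against -0.32, -0.36 and -0.56 on D5.1G4 replicates 1, 2 and 3. B16-F1 was lower on every array, but its own replicates ranged more widely (SD 0.43) than those of D5.1G4 (SD 0.13), while spots of 1 array had an SD of 0.063 to 0.12. The difference was -0.76, a 1.69-fold lower signal (SE 0.23, interval -1.32 to -0.19, adjusted p = 0.0476 by limma), below the minimum fold. With no minimum fold 34.9% of all features pass. Within scan 2 the difference was -1.14 (adjusted p = 0.0291), without the arrays of scan 1 it was -1.19 (adjusted p = 0.0318) and with scan as a block -1.14 (adjusted p = 0.0405). These 3 calls are not separate evidence, because each rests on B16-F1 replicate 1, the lowest Sox9 value, as the only B16-F1 array. Without B16-F1 replicate 1 it was -0.54 (adjusted p = 0.0718). Leaving out each of the other arrays in turn gave values down to -0.97, with an adjusted p at or under 0.05 only without B16-F1 replicate 3 (0.0196).

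Sox2, on chromosome 3, a pluripotency and neural progenitor factor, stayed under the detection mark on all 6 arrays. Its probe read between -7.89 and -7.64 in B16-F1, against values between -7.38 and -7.20 in D5.1G4, and it was not tested. The lowest signal marked as above background was between -6.17 and -5.50 on the B16-F1 arrays and between -5.21 and -5.09 on the D5.1G4 arrays. No fold is given for Sox2, since both lines lie under that limit.

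The MITF relatives Tfe3 and Tfeb were not called. Tfe3, on chromosome X, read 2.26, 2.47 and 2.50 on the B16-F1 replicates, against 2.47, 2.15 and 2.13 on the D5.1G4 replicates, by its brighter probe. The highest D5.1G4 value, replicate 1, lay among the B16-F1 values, and the difference was 0.15 (SE 0.14, interval -0.19 to 0.50, adjusted p = 0.441 by limma). The dimmer Tfe3 probe was usable on 1 B16-F1 array only (1.43), because its spot was marked non-uniform on the other 2, against 0.77, 1.02 and 1.01 in D5.1G4 (difference 0.49, adjusted p = 0.14 by limma over all probes). Tfeb, on chromosome 17, read -3.49, -3.65 and -3.66 on the B16-F1 replicates, against -3.84, -3.64 and -3.56 on the D5.1G4 replicates. Its lines overlapped at a low signal, with a difference of 0.077 (SE 0.12, interval -0.23 to 0.38, adjusted p = 0.661 by limma) that had the opposite sign under median scaling (-0.047), quantile normalization (-0.0052) and without D5.1G4 replicate 1 (-0.0025).

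Cited1, on chromosome X, encodes a coactivator that binds CBP and p300. It read 3.86, 3.87 and 3.53 on the B16-F1 replicates, against 3.23, 3.55 and 3.48 on the D5.1G4 replicates. B16-F1 replicate 3 fell just below D5.1G4 replicate 2, and the other B16-F1 arrays were above all D5.1G4 arrays. The difference was 0.33 (SE 0.15, interval -0.038 to 0.70, adjusted p = 0.145 by limma) and was not called. With quantile normalization it was 0.46 (adjusted p = 0.038 by limma) and with the authors' deposited values 0.45 (adjusted p = 0.0406), both under 2-fold.

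Within scan 2, 1 B16-F1 array faced 2 D5.1G4 arrays. Differences there not yet given were 0.067 for Sox10, 0.01 for the brighter Tfap2a probe, 0.19 for Irf4 and 0.10 for Tfeb. The brighter Tfe3 probe gave 0.12 and Cited1 0.34. The dimmer probes gave -0.59 for Pax3, 0.64 for Mitf and 0.41 for Tfe3. None of these was called there. The median of all features in that scan was -0.15.

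**Figure D2:**
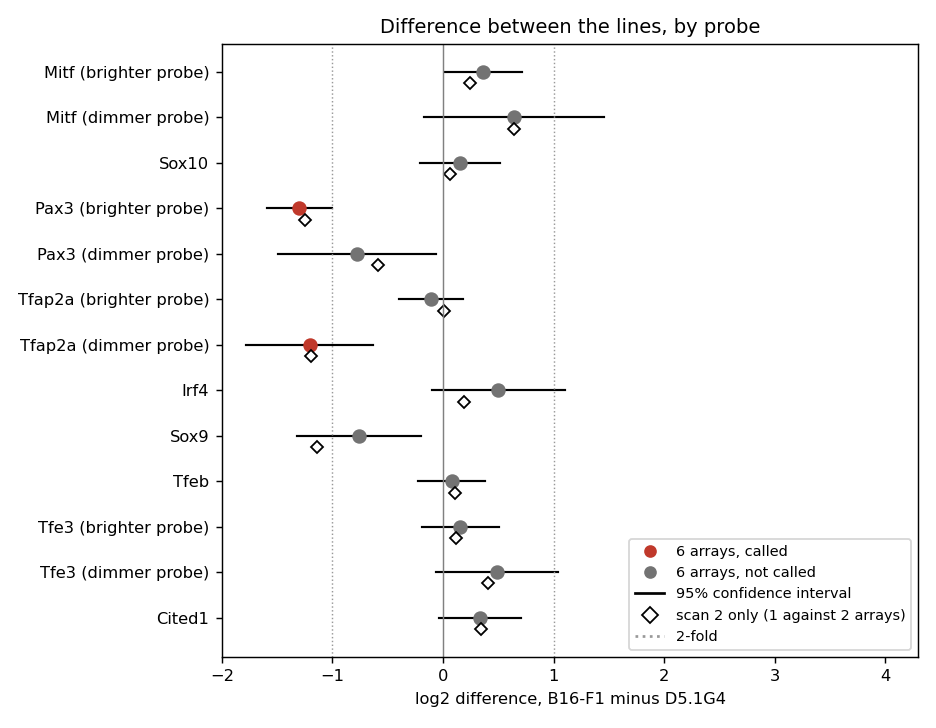
Log2 difference between the lines, B16-F1 minus D5.1G4 (x axis), for the 13 probes tested, with 95% confidence intervals from limma over 6 arrays, red for called probes and open diamonds for the arrays of scan 2 alone (the dimmer Tfe3 probe has 4 arrays). The brighter Pax3 probe (-1.30) and the dimmer Tfap2a probe (-1.21) are called, and Sox9 stands at -1.14 within scan 2 and at -0.76 over all arrays.

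Genes known to be driven by MITF moved in both directions. In the gene lists that follow, Ctsk, Usf1, Zeb1, Kit and Wnt3a were detected in B16-F1 alone and entered the test only through that line, so their calls add no support to a list's count. Of 27 tested targets 6 rose, 2 fell and 19 were not called, 29.6% called against 15.2% of all features, with a median difference of 0.26. Ctsk, a collagen-cleaving cathepsin, had a signal at least 4.98-fold higher in B16-F1 than the limit in D5.1G4, where it was not detected (means -2.82 in B16-F1 and -6.28 in D5.1G4, adjusted p = 0.000354 by limma). The Ctsk call was lost with normexp (1.52, adjusted p = 0.0831), where the fitted fold was smaller than the 4.98-fold bound. Trpm1, a melanocyte cation channel, rose by 2.73 (SE 0.30), though its other probes gave 1.05 and -0.60. Ppargc1a, the mitochondrial coactivator PGC-1 alpha, fell by 2.89 (SE 0.26), and its other probe gave -2.75. Cdk2, the cyclin-dependent kinase, rose by 1.27 (SE 0.31, adjusted p = 0.0233), a call that was lost in 7 of 20 alternatives, among them each array left out except B16-F1 replicate 1 and D5.1G4 replicate 1. The other calls, given to complete the count, were Slc45a2, Slc24a5 and Mc1r, higher by 1.22, 1.13 and 1.11, and Mreg, lower (-1.03).

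Several pigment genes among these targets were not called. Dct, Tyrp1, Pmel and Mlana had differences of -0.54, -0.45, -0.37 and -0.68, while Tyr and Gpr143 had 0.78 and 0.83. Of these, Tyr, Gpr143 and Mlana had an adjusted p under 0.05 by limma with a fold under 2, and another Tyr probe gave 1.64 and was called.

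Among 14 tested genes driven by SOX10 or PAX3 or typical of neural crest glia, Mitf itself included, 1 rose, 2 fell and 11 were not called. That is 21.4% called against 15.2% of all features, with a median of 0.27 that was -0.25 within scan 2. S100b, a calcium-binding protein of glia and melanocytes, fell by 1.93 (SE 0.15, adjusted p = 0.000389 by limma), and Mbp, myelin basic protein, fell by 1.17 (SE 0.21). The other Mbp probe gave -0.47, and the Mbp call was lost in 6 of 20 alternatives. The summed signal of 7 Schwann cell and glia markers was 10.5 to 12.2 times the 75th percentile in B16-F1, against 27.2 to 32.9 times in D5.1G4, most of it S100b. Of these markers Pmp2 was not detected on any array.

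Lysosomal and autophagy genes of the network that TFEB and TFE3 control included 2 that rose, none that fell and 28 not called, of 30 tested. That is 6.67% called, against 15.2% of all features (6.28% higher), with a median of 0.36. Under median scaling the list's median was 0.23 and that of all features -0.13. Dimmer probes of Ctsa (2.18) and Wipi1 (1.08) were called where the probes that stand for these genes were not (0.15 and 0.80). These probes, and those of Usf2 and Zic1 below, were singled out after their values were seen. Naglu, a lysosomal hydrolase, rose by 1.34 (SE 0.18) and Lamp2, a lysosomal membrane protein, by 1.14 (SE 0.12), where the other Lamp2 probe gave 0.56. The Lamp2 call fell under 2-fold with normexp (0.96) and as a mean over its probes (0.85).

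Family relatives and partners of the lineage factors included 1 that rose, none that fell and 12 not called of 13 tested, 7.69% called against 15.2% of all features, with a median of -0.13. Usf2 was among those not called (-0.51), but its dimmer probe was called at 2.16. Usf1, a helix-loop-helix factor that binds the same E-box as MITF, was higher in B16-F1, at least 3.32-fold, and not detected in D5.1G4 (means -3.31 in B16-F1 and -5.33 in D5.1G4, adjusted p = 0.00539 by limma), a call lost with normexp (adjusted p = 0.188) and without the arrays of scan 1 (0.093). Among 18 other transcription factors of neural crest and melanocytes 3 rose, 1 fell and 14 were not called, 22.2% called against 15.2% of all features, with a median of 0.24. Zic1 was not called (0.21, means -3.12 in B16-F1 and -3.33 in D5.1G4), but its dimmer probe was called at 4.27. With no array missing, that fitted value puts the dimmer probe's D5.1G4 mean under the detection limits there (-5.21 to -5.09). The call of the dimmer Zic1 probe therefore adds no support. Id3, an inhibitor of helix-loop-helix factors, rose by 2.02 (SE 0.15) and Bhlhe40, a helix-loop-helix repressor, by 1.03 (SE 0.11). Zeb1 was at least 2.08-fold higher, with no detection in D5.1G4 (means -4.07 in B16-F1 and -5.57 in D5.1G4), and Tcf4, a helix-loop-helix partner protein, fell by 1.36 (SE 0.17). The Bhlhe40 call fell under 2-fold with median scaling (0.90) and normexp (0.89), the Zeb1 call was lost with normexp (0.69, adjusted p = 0.459) and the Tcf4 call without the arrays of scan 1 (-1.29, adjusted p = 0.0506).

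Genes that act upstream of Mitf, or that set where MITF, TFEB and TFE3 lie in the cell, included 4 that rose and none that fell of 18 tested, 22.2% called against 15.2% of all features (6.28% higher), with a median of 0.38. Kit, the stem cell factor receptor, was higher in B16-F1, at least 5.06-fold, and not detected in D5.1G4 (means -2.79 in B16-F1 and -7.37 in D5.1G4, adjusted p = 3.83e-05 by limma). Wnt3a, a ligand that raises Mitf through LEF1 and beta-catenin, read -5.20, -5.33 and -3.75 on the B16-F1 replicates and was likewise not detected in D5.1G4 (-7.28, -7.21 and -6.53). B16-F1 replicates 1 and 2 lay within or below the range of the D5.1G4 arrays' detection limits (-5.21 to -5.09), so no fold is given. The Wnt3a call (adjusted p = 0.012 by limma) was lost with scan as a block (adjusted p = 0.165) and with normexp (0.32). Mc1r, the melanocortin receptor that acts through cAMP, rose by 1.11 (SE 0.13) and fell just short of 2-fold with median scaling (0.98). Ywhaz, a 14-3-3 protein of the kind that holds TFEB in the cytoplasm, rose by 1.08 (SE 0.27), and this call was lost in 10 of 20 alternatives.

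**Figure D3:**
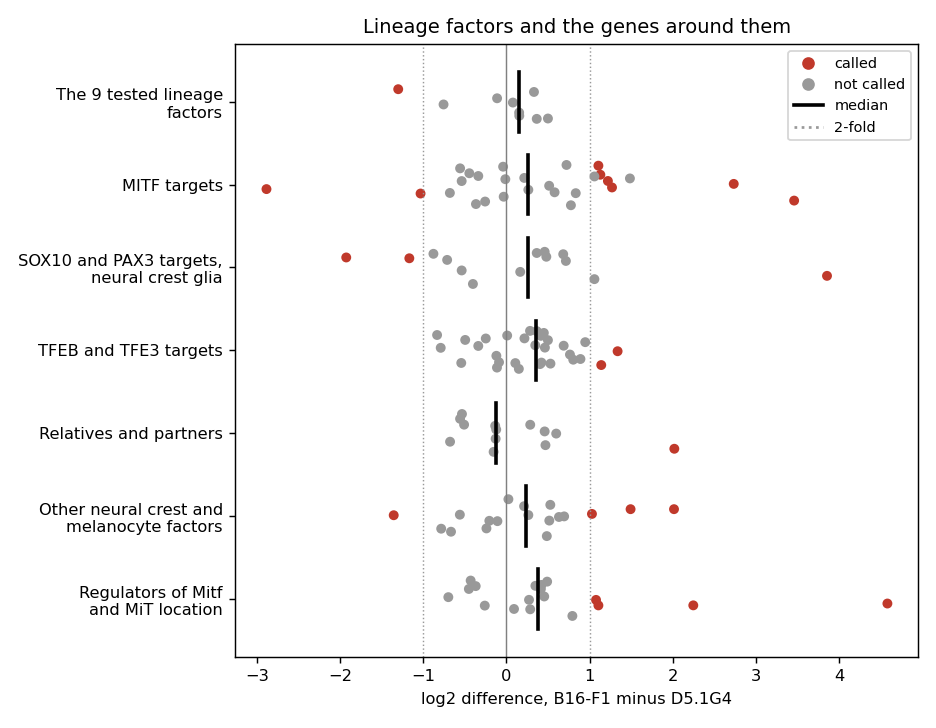
Log2 difference, B16-F1 minus D5.1G4 (x axis), of each tested gene in the 9 tested lineage factors and the 6 gene lists around them, with red points for called genes, grey for the rest and black bars for medians. The medians lie between -0.13 and 0.38, and the called genes extend from Ppargc1a at -2.89 to Kit at 4.58, a fitted value for a gene not detected in D5.1G4.

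The genes whose levels followed a lineage factor most closely over the 6 arrays were found by the root mean square gap between centred log2 levels, over 10717 candidates detected on all arrays. Rnh1, Ankrd13a and Pafah2 lay closest to Mitf, at gaps of 0.031, 0.036 and 0.043, against a median of 0.37 over all candidates. Vipas39, Ergic3 and Tysnd1 lay closest to Sox10, at 0.021, 0.032 and 0.034, against a median of 0.33. Fam161b, Mtrf1l and Ptar1 lay closest to Pax3, at 0.053, 0.056 and 0.064, against a median of 0.68, and differed by -1.38, -1.33 and -1.25. With 6 arrays in 2 lines such likeness mostly repeats the difference between the lines.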

How the data were processed

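RNA of 2 cell lines was hybridised to 6 Agilent mouse arrays, 3 for each line, labelled with Cy3. The deposited scanner files hold linear intensities for every spot, made with Agilent Feature Extraction 11.0.1.1, per the file headers, which also give the mm9 build and report spatial and multiplicative trend fits. Marks for detection, non-uniform spots, outliers and saturation are deposited as 0 or 1. The authors' deposited table holds log2 values for 22147 probes; the sources used here do not state how these were normalized.

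The processed intensity was taken as log2 minus the array's 75th percentile, marked spots (0.67% to 1.58% per array) were treated as missing, and repeated spots were averaged per probe. Accessions were matched to RefSeq genes (GRCm38.p6), and 27234 of 39429 probes (69.1%) matched 1 gene. The probe with the highest mean stood for a gene. Features detected on at least 3 of 6 arrays were tested with limma 3.58.1 in R 4.3.3, modelling line alone, with p-values adjusted by Benjamini-Hochberg for 18442 genes or other features and, separately, for 22131 probes. The fit was tested on simulated data. Confidence intervals are limma's, unadjusted. Bounds set the brighter line against each array's lowest detected signal or the probe's own, whichever is higher. They hold for the main processing only, and normexp gave smaller fitted folds for Ctsk, Usf1, Zeb1 and Kit. The number of arrays limits the precision.

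The lineage factors and the gene lists were chosen with earlier results of these data known, so lists are described by counts and medians. The lists share genes, Mc1r among the called ones, so their counts overlap. Named genes are all 10 factors, up to 4 called genes with the largest difference in each list, and the 3 genes nearest in pattern to Mitf, Sox10 and each called factor; others complete a count. Some genes of the lists are not reported here. The numbers of the replicates were not used to pair the arrays, and the correlations of same-numbered deviations were -0.39, -0.03 and -0.30. Same-numbered arrays never share a scan, so these values cannot tell whether the cultures were paired.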

Additional observations from a re-analysis of the deposited data

How the results depend on the processing

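The 9 tested lineage factors were recomputed under 20 alternatives for normalization, background, probe choice, filter, scan, replicate number, variance model and arrays left out (Irf4 under 19, since it was not detected on all arrays). Pax3 was called in each, though unadjusted p could not lose its call, and no other factor was called except Sox9. The number of the 10 factors called was 2 with scan as a block, within scan 2 and without the arrays of scan 1, which all rest on the lone B16-F1 replicate 1 with its spread taken from the other arrays, and 1 elsewhere, arrays left out included (1 to 1). Tfap2a by its brighter probe reversed sign with scan as a block (0.00996), within scan 2 (0.00996) and without the arrays of scan 1 (0.0388). Tfeb reversed with quantile normalization (-0.0052), median scaling (-0.0471) and without D5.1G4 replicate 1 (-0.0025, the lowest of -0.0025 to 0.137 with 1 array left out), and Tfe3 with normexp (-0.0062). As a mean over its probes Tfap2a was -0.66 (adjusted p = 0.0125) and Tfe3 0.67 (adjusted p = 0.0421), both under 2-fold. The Tfe3 mean used the brighter probe alone on B16-F1 replicates 2 and 3, where the dimmer one was missing. For that reason it exceeds both single-probe differences (0.15 and 0.49), and it is not read as a difference between the lines. At the gene level Tfap2a, Tfe3 and Tfeb were not called in any alternative, and the cause of the reversals was not tested. Over all features 2799 were called, and 1255 with normexp (1480 of 3478 over single probes). Without 1 array the counts ran from 2530 to 3375 over genes, from 3162 to 4169 over probes and from 18 to 23 of the genes in the lists. Called lysosomal genes numbered 4 with quantile normalization and with the authors' deposited table, against 2. Called regulators numbered 2 with median scaling, normexp, detection on all arrays and scan as a block, against 4. Called relatives numbered 0 with normexp and detection on all arrays and 2 with scan as a block and within scan 2, against 1. Called SOX10 and PAX3 targets numbered 5 with no detection filter and without B16-F1 replicate 1, against 3, other neural crest factors 2 with normexp, against 4, and MITF targets 5 without the arrays of scan 1, against 8. The share of calls that were higher was 41.4%, and 50.8% without B16-F1 replicate 1. The median of all features moved by -0.13 with median scaling, by -0.15 with scan as a block and by -0.17 with no detection filter. The normexp alternative used median spot signals. With the replicate number as a block 2580 features were called and Pax3 stayed at -1.30, the same as without pairing, while the Cdk2 and Ywhaz calls were lost (adjusted p = 0.0864 for each). The values of Irf4, Sox2 and Tfeb and of the dimmer Tfap2a and Mitf probes are limited by their signal over background.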
